A study of Mus musculus with 43 samples.

Results

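Hyaluronan is a long sugar chain of the extracellular matrix, and the 9 genes described here make it, break it down or bind it. They were taken by symbol from the 21938 genes of the count table, and all 9 were found and tested. The synthases are Has1, Has2 and Has3, the breakdown genes are Hyal1, Hyal2 and Cemip, and the genes of binding proteins are Cd44, Tnfaip6 and Vcan.

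The study measured RNA of the inferior lung lobe in mice of 3 groups. Control mice were given a vehicle (10 libraries), bleomycin mice were given the vehicle of nintedanib (16 libraries), and bleomycin mice were given nintedanib (17 libraries). Bleomycin, a DNA-breaking antibiotic, scars rodent lungs, and nintedanib, a drug against idiopathic pulmonary fibrosis, inhibits tyrosine kinases of the PDGF, FGF and VEGF receptors. The labels give no genotype, strain, sex, age, dose, route or day, and which vehicle control mice received is not stated, so effects of the vehicle and of bleomycin cannot be told apart. They do not say which library came from which mouse, so each was taken as 1 mouse, and p-values measure the spread between these libraries.

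Hyaluronan is made at the plasma membrane by 3 related synthases, which extrude the growing chain into the matrix. The hyaluronidases HYAL1 and HYAL2 cut it, HYAL2 at the cell surface and HYAL1 in lysosomes, and CEMIP is a further protein needed for its breakdown by fibroblasts. In injured lung the chain accumulates in the matrix, where CD44 on leukocytes and mesenchymal cells binds it, the proteoglycan versican is held on it, and the secreted protein TSG-6 (Tnfaip6) joins it to heavy chains of inter-alpha-inhibitor.

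The libraries held 13138281 to 19111457 counts. Markers of lung epithelium (6 genes, Sftpc among them) summed to 20980 to 60860 CPM (counts scaled to the library's total) across all libraries, so lung was present in each. The library names carry 3 number series without a stated meaning: A holds 33 libraries, B holds 4 and C holds 6. Of the control libraries, 9 are in A, 1 is in C and none is in B. Adipoq, a marker of fat, reached 1 CPM in 8 of 10 control, 0 of 16 vehicle and 5 of 17 nintedanib libraries. In vehicle against control lungs all 6 fat markers were called lower, with sums of 8.87 to 2240 CPM in control and 1.88 to 13.5 CPM in vehicle lungs. Of 6 markers of large airways 5 were called lower and 1 higher, with sums of 11.1 to 1848 and 9.89 to 97.8 CPM, and the part of either list in the results below was not tested beyond leaving out the libraries with Adipoq. Replicate numbers used here only name libraries, in the order of the deposited records, since the labels carry none, and they pair nothing. These are bulk samples, so fewer cells of a type and less RNA per cell cannot be told apart.

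Levels between genes were compared as CPM per kilobase of exon. In control lungs the hyaluronidase genes and the receptor gene led. Hyal2 had a median of 30.1 CPM per kilobase, Cd44 14.9 and Hyal1 4.20, and the ranges of these 3 genes did not overlap. The next neighbours overlapped in range, with medians of 0.699 for Has1, 0.590 for Tnfaip6, 0.540 for Has3 and 0.425 for Vcan. Has2 (0.0396) and Cemip (0.0360) came last, and their ranges overlapped each other but none of the rest. In bleomycin lungs given vehicle, the same measure placed Cd44 first with 37.2 and Hyal2 second with 22.2, with overlapping ranges (22.4 to 52.0 and 15.2 to 30.4). Has2 (0.380) and Cemip (0.327) were again last by median, but their highest libraries reached 4.74 and 5.09 CPM per kilobase, above every library of Has1, Has3, Tnfaip6 and Vcan in that group.

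**Figure D1:**
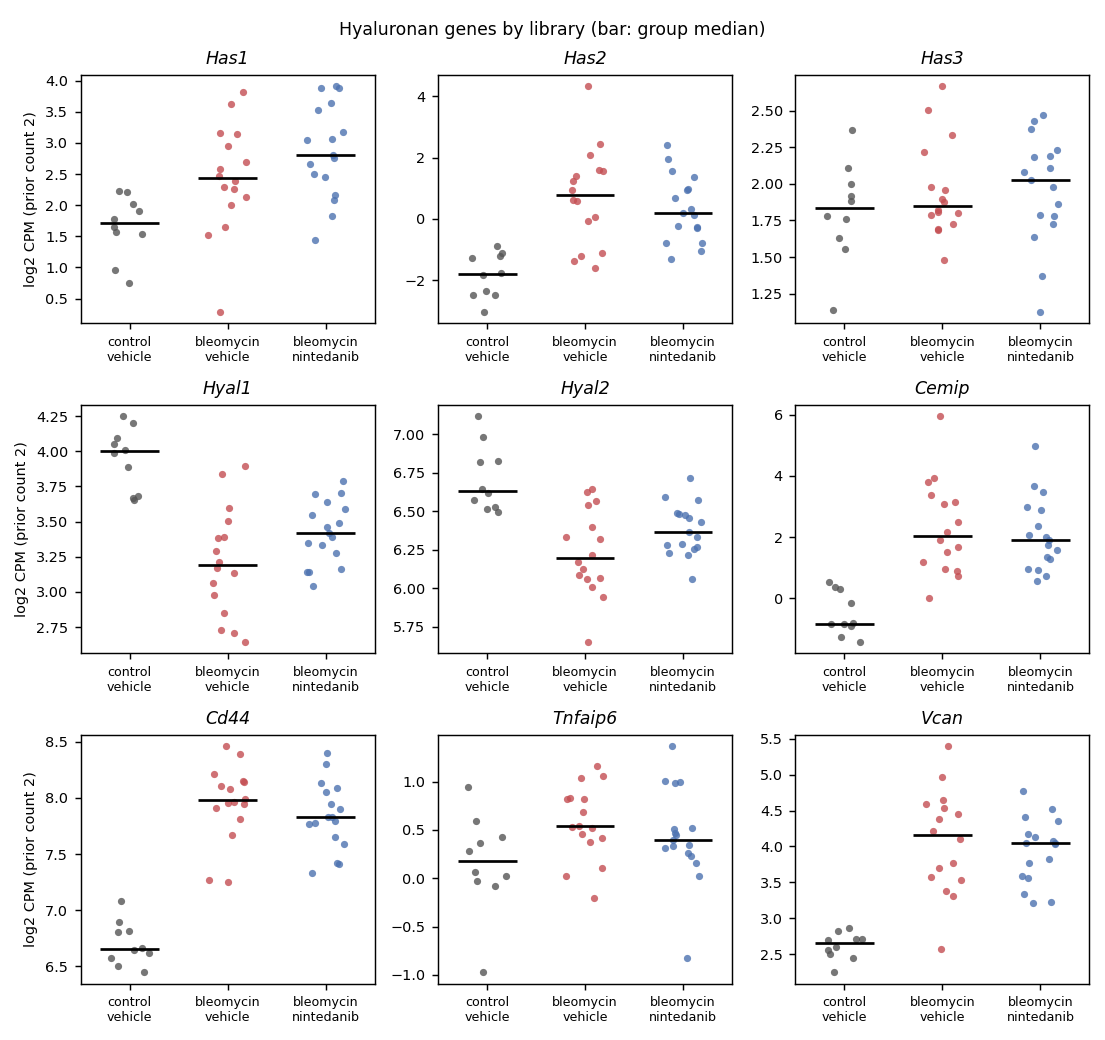
The level of each of the 9 genes in each library, as log2 CPM with a prior count of 2, for control vehicle (n = 10), bleomycin vehicle (n = 16) and bleomycin nintedanib (n = 17) lungs. Points are libraries, black bars are group medians, and each panel has its own axis. The control and bleomycin points of Cd44 do not overlap, Hyal1 and Hyal2 lie mostly lower in bleomycin lungs, and Has2 and Cemip have the widest spread among bleomycin lungs.

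The first comparison asked which of these genes differ between bleomycin and control lungs, both given vehicle. Has1, Has2, Cemip, Cd44 and Vcan rose, Hyal1 and Hyal2 fell, and Has3 and Tnfaip6 did not pass the test. Has2 and Cemip showed the highest fold changes of the 9, 15.2-fold and 13.6-fold, followed by Vcan at 3.09-fold, Cd44 at 2.42-fold and Has1 at 1.93-fold. These calls came from edgeR's quasi-likelihood test at a Benjamini-Hochberg adjusted p under 0.05. Of all 14836 genes tested, 57.9% were called in this comparison, 29.5% as higher and 28.3% as lower. That 7 of 9 genes were called is therefore read against a background in which most genes were called. The median log2 fold change of the 9 was 0.95, beside -0.01 over all genes tested.

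Of the synthase genes, Has2 was the one nearly silent in control lungs, with 31 counts over the 10 libraries and 1 library at 0. Its level ran from 0 to 0.415 CPM in control lungs with a median of 0.168, and from 0.206 to 20.1 CPM with a median of 1.61 in bleomycin lungs given vehicle. Of 16 bleomycin lungs, 12 lay above the highest control lung and the lowest ones lay among the controls. Has2 thus had a log2 fold change of 3.93 ± 0.70 (SE), with a 95% interval of the fold from 5.73 to 40.4 and an adjusted p of 7.53e-06 by edgeR's quasi-likelihood test. Vehicle replicate 4 was the highest at 20.1 CPM, and without it the log2 fold change was 3.20.

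Has1 ran from 1.56 to 4.56 CPM in control lungs (median 3.16) and from 1.10 to 13.96 CPM in bleomycin lungs given vehicle (median 5.27). Most bleomycin lungs, 11 of 16, exceeded the highest control lung, while 1 lay below the lowest. This gave a log2 fold change of 0.95 ± 0.30, with an adjusted p of 0.00597 by edgeR's test. Within number series A alone it was 0.53 and was not called (adjusted p = 0.12 by edgeR), and in series C, with 1 control library, the difference in mean log2 CPM was 2.57. The mesothelium, the outer lining of the lung, was followed through 6 marker genes that sum to 526.5 to 726.4 CPM in control and 377 to 1286 CPM in vehicle lungs. Of these, Msln and Krt19 were called higher and Upk3b, Upk1b, Lrrn4 and Wt1 were not called, none of the 6 was at 0 in a group, and their part in the Has1 result was not tested.

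Has3 ran from 2.08 to 5.04 CPM in control lungs (median 3.45) and from 2.67 to 6.24 CPM in bleomycin lungs given vehicle (median 3.49). The ranges overlapped, and 2 of 16 bleomycin lungs lay above the highest control lung. Its log2 fold change of 0.14 ± 0.14, with a 95% interval from -0.14 to 0.43, did not pass (adjusted p = 0.394 by edgeR).

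The make-up of synthase mRNA was followed as each gene's share of the summed CPM per kilobase of the 3 synthases in a library. In control lungs Has1 held a median share of 55.1%, Has3 of 42.2% and Has2 of 3.19%. In bleomycin lungs given vehicle the medians were 53.2%, 24.2% and 16.3% in the same order, and under nintedanib they were 63.3%, 21.2% and 9.73%. The Has2 share ran from 2.89% to 73.3% among vehicle lungs, and Has2 was the leading synthase in 1 of 16 vehicle lungs and in none of the 10 control or 17 nintedanib lungs. These shares are descriptions without a test.

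**Figure D2:**
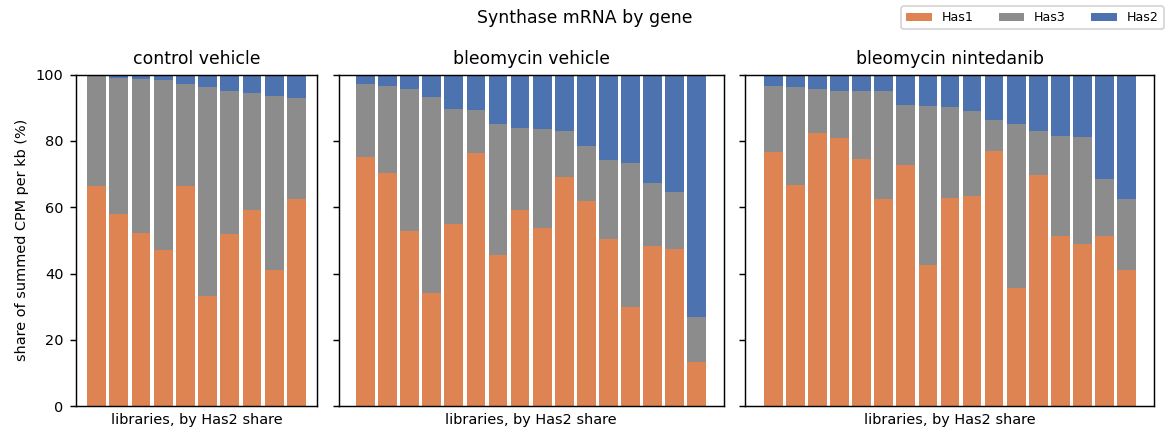
Share of each synthase gene in the summed CPM per kilobase of Has1, Has2 and Has3, in percent, with 1 bar per library, ordered within each group by the Has2 share. The Has2 share stays at or under 6.95% in control lungs, reaches 73.3% in a vehicle lung and 37.6% in a nintedanib lung.

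Cemip was the breakdown gene that rose. It ran from 0.246 to 1.32 CPM in control lungs (median 0.440) and from 0.891 to 62.2 CPM in bleomycin lungs given vehicle (median 3.997). All but 1 of the 16 bleomycin lungs were above the highest control lung. The fitted log2 fold change was 3.77 ± 0.68, with a 95% interval of the fold from 5.29 to 35.2 and an adjusted p of 8.74e-06 by edgeR. Without vehicle replicate 4, the highest library, it was 3.03.

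The hyaluronidase genes moved the other way. Hyal1 ran from 12.5 to 18.9 CPM in control lungs (median 15.9) and from 6.12 to 14.8 CPM in bleomycin lungs given vehicle (median 8.99). Of 16 bleomycin lungs, 14 lay below the lowest control lung. Its level changed by -0.71 ± 0.12 on the log2 scale, to 0.611 of the control level (adjusted p = 1.49e-06 by edgeR). Hyal2 ran from 89.9 to 139 CPM in control lungs (median 99.2) and from 50.1 to 100.1 CPM in bleomycin lungs (median 73.1), with 12 of 16 below the lowest control lung. Its log2 fold change was -0.47 ± 0.09, or 0.723 of the control level (adjusted p = 1.41e-05 by edgeR). Both genes lie on the plus strand of chromosome 9 in GRCm38, Hyal2 at 107567945 to 107572779 and Hyal1 at 107576927 to 107581710, with 4147 bases and no other protein-coding gene between them. Exons of Hyal1 overlap those of Naa80 and Hyal3 on the same strand, so reads of these genes could be shared or lost, and the value of Hyal1 is uncertain to that extent. Endothelial markers fell in the same comparison: 6 of 6 were called lower, with sums of 3489 to 4659 CPM in control and 1309 to 3527 CPM in vehicle lungs, none was at 0, and their part in the hyaluronidase results was not tested.

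Among the genes of binding proteins, Cd44 separated the groups completely. The receptor gene ran from 87.1 to 135 CPM in control lungs (median 101) and from 152 to 352 CPM in bleomycin lungs given vehicle (median 252). Every one of the 16 bleomycin lungs was above the highest control lung, a pattern held by 3.7% of all genes tested. Cd44 had a log2 fold change of 1.27 ± 0.12, with a 95% interval of the fold from 2.05 to 2.86 (adjusted p = 9.98e-12 by edgeR). All 6 macrophage markers were called higher beside it, with sums of 349 to 460 CPM in control and 492.8 to 1475 CPM in vehicle lungs. Of 6 leukocyte markers shared by most types, 4 were called higher, with sums of 596 to 875 and 695 to 1448 CPM, while Ptprc (log2 fold change 0.01, adjusted p = 0.932 by edgeR) and Coro1a (-0.29, adjusted p = 0.0577) were not called. Of 6 neutrophil markers 3 were called lower and none higher, with sums of 69.0 to 186 CPM in control and 25.9 to 124 CPM in vehicle lungs. The 6 lymphocyte markers gave the same counts, with sums of 86.4 to 163 and 35.2 to 184 CPM. No marker of these 4 lists was at 0 in every library of a group. All 6 markers each of activated fibroblasts, profibrotic macrophages and transitional epithelium (Krt8 among them) were also called higher. Of 6 general fibroblast markers 4 were called higher and 1 lower, and all 6 endothelial markers were called lower. The part of any of these lists in the Cd44 result was not tested.

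Vcan, which encodes the proteoglycan versican, ran from 4.62 to 7.12 CPM in control lungs (median 6.15) and from 5.83 to 41.97 CPM in bleomycin lungs given vehicle (median 17.8). All but 1 of the 16 bleomycin lungs exceeded the highest control lung. Vcan had a log2 fold change of 1.63 ± 0.22, with a 95% interval of the fold from 2.27 to 4.21 (adjusted p = 5.32e-08 by edgeR). Markers of activated fibroblasts (6 genes, Cthrc1 and Tnc among them) were all called higher in the same comparison, with sums of 451 to 581 CPM in control and 747 to 7944 CPM in vehicle lungs. Of 6 general fibroblast markers 4 were called higher, Col1a1, Col1a2, Lum and Col6a3. Pdgfra was called lower (log2 fold change -0.65, adjusted p = 2.1e-05 by edgeR), and Dcn was not called (-0.11, adjusted p = 0.612). Their sums were 1031 to 1257 CPM in control and 1123 to 8432 CPM in vehicle lungs. No marker of these lists was at 0, and their part in the results of Vcan, Has2 and Cemip was not tested.

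Tnfaip6 was near 1 CPM in all groups. It ran from 0.387 to 1.80 CPM in control lungs (median 1.01) and from 0.746 to 2.11 CPM in bleomycin lungs given vehicle (median 1.33), and 3 of 16 bleomycin lungs lay above the highest control lung. The log2 fold change was 0.43 ± 0.20, with a 95% interval from 0.02 to 0.83, and missed the threshold (adjusted p = 0.0659 by edgeR). Leaving out 1 library moved Tnfaip6 both ways, and 4 of 43 such leave-outs took it past the threshold. The adjusted p by edgeR was lowest without control replicate 4, at 0.0294. It was highest without control replicate 9, at 0.191, where the log2 fold change was 0.29.

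**Figure D3:**
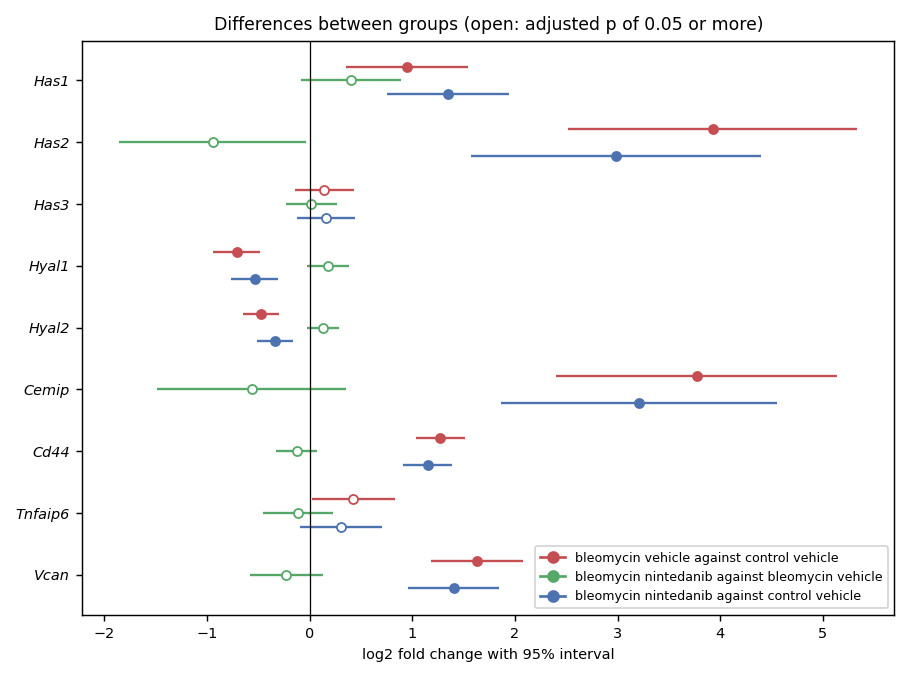
Log2 fold changes (horizontal axis) of the 9 genes in the 3 comparisons, with points for edgeR estimates and lines for 95% intervals. Filled points had an adjusted p under 0.05. In both comparisons with control lungs 7 genes are filled, and between the bleomycin groups all 9 points are open, with the interval of Has2 reaching from -1.85 to -0.03.

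The promoters of the called genes are shown because these genes moved together or apart in the same lungs. RefSeq windows of the GRCm38.p6 build, from 250 bases before to 50 after the annotated start, were at hand for 7 of the 9 genes, and the windows of the 6 called ones among them follow 5′ to 3′ on the gene's strand. Capitals mark matches to a GC box (GGGCGG, both strands), an AP-1 site (TGANTCA, both strands), a TATA box (TATAAA, gene strand only) or an NF-kB motif (both strands).

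Has1, chr17:17855139-17855438, minus strand: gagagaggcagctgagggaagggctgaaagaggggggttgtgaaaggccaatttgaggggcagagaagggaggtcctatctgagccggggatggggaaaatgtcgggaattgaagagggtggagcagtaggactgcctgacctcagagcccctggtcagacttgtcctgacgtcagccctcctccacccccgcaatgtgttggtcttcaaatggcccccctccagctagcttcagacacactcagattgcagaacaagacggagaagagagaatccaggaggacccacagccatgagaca

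Hyal1, chr9:107576700-107576999, plus strand: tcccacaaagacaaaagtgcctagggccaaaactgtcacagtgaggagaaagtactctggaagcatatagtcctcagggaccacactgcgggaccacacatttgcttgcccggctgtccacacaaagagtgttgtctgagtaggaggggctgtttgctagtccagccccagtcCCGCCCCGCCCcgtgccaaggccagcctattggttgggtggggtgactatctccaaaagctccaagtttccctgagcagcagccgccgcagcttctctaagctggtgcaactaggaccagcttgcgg

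Hyal2, chr9:107568913-107569212, plus strand: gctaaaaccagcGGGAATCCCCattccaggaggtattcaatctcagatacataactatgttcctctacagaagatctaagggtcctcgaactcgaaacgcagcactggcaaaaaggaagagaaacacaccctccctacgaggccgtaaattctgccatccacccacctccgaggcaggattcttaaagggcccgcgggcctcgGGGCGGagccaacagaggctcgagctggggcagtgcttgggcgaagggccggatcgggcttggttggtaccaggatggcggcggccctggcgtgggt

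Cemip, chr7:84086456-84086755, minus strand: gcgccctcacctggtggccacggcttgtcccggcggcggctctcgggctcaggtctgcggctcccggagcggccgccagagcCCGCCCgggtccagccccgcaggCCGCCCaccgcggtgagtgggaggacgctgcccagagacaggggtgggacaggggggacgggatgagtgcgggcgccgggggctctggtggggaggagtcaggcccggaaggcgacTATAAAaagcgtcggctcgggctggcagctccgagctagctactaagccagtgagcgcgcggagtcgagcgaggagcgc

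Cd44, chr2:102901616-102901915, minus strand: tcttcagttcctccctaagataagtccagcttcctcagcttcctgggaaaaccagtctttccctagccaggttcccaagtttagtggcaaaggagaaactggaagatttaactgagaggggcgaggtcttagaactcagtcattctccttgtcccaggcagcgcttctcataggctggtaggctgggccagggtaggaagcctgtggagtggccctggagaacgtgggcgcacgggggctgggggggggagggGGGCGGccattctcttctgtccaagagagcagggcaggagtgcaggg

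Vcan, chr13:89742463-89742762, minus strand: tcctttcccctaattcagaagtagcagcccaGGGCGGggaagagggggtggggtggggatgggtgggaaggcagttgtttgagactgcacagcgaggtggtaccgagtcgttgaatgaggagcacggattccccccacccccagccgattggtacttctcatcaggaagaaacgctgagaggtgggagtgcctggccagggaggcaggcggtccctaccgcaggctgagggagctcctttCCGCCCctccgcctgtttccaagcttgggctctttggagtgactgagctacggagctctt

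A GC box was found in 6 of the 7 windows and in 35.7% of all 32851 promoter windows in the RefSeq table. In Hyal1 a pair of them overlapped by 1 base, from -77 to -72 and from -72 to -67 relative to the start, and Cemip and Vcan also held 2 each. No GC box letters occurred in the Has1 window. Cemip alone among the 7 held TATAAA, at -29 to -24 (8.32% of all windows), Hyal2 alone an NF-kB motif, at -238 to -229 (4.51%), and Tnfaip6, not printed, alone an AP-1 site, at -142 to -136 (7.81%). The Cemip window had 73.7% G and C and the Vcan window 61%, beside a median of 52.7% over all windows. The RefSeq start of Hyal2 used here lies inside the gene span given above. Matches are descriptions of letters and not of bound sites.

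The second comparison asked which of the genes differ with nintedanib among bleomycin lungs. By edgeR's quasi-likelihood test 0 of the 9 were called, while 7.31% of all genes tested were. An unadjusted p under 0.05 was reached by 1 of the 9, Has2, and by 24.3% of all genes tested, and DESeq2 also called 0 of the 9. The median log2 fold change of the 9 was -0.12, beside 0.00 over all genes tested.

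Has2 ran from 0.283 to 5.14 CPM under nintedanib (median 1.03), beside 0.206 to 20.1 CPM under vehicle (median 1.61). The nintedanib lungs lay within the vehicle range. The log2 fold change was -0.94 ± 0.45, with a 95% interval from -1.85 to -0.03 (adjusted p = 0.192 by edgeR). Without vehicle replicate 4 it was -0.25 (adjusted p = 0.748 by edgeR), so the size of this difference rested on that library. In number series A, B and C the differences in mean log2 CPM were -0.38, 1.19 and -1.74.

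Cemip ran from 1.36 to 31.7 CPM under nintedanib (median 3.58), within the vehicle range of 0.891 to 62.2. For Cemip the log2 fold change was -0.56 ± 0.46, with a 95% interval from -1.48 to 0.35 (adjusted p = 0.46 by edgeR). It was 0.14 without vehicle replicate 4 (adjusted p = 0.867 by edgeR), so its direction turned.

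Has1 had the highest median under nintedanib of the 3 groups, 6.89 CPM with a range from 2.61 to 15.0. Its log2 fold change against vehicle was 0.40 ± 0.24, with a 95% interval from -0.09 to 0.89 (adjusted p = 0.305 by edgeR). Has3 ran from 2.06 to 5.43 CPM (median 3.95), and its log2 fold change of 0.02 had an interval from -0.23 to 0.26. The groups overlapped widely in both synthases.

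Hyal1 ran from 8.10 to 13.7 CPM under nintedanib (median 10.6) and Hyal2 from 66.5 to 105 CPM (median 82.5). The log2 fold changes against vehicle were 0.18 for Hyal1 (95% interval from -0.03 to 0.38) and 0.13 for Hyal2 (from -0.02 to 0.29). Both medians were between those of the vehicle and control groups, and neither difference passed the test (adjusted p = 0.271 and 0.276 by edgeR).

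No gene of a binding protein was called either. Cd44 ran from 161 to 338 CPM under nintedanib (median 227), with a log2 fold change of -0.12 and an interval from -0.32 to 0.07. Vcan ran from 9.12 to 27.3 CPM (median 16.3), with a log2 fold change of -0.22 and an interval from -0.58 to 0.13. Tnfaip6 ran from 0.444 to 2.45 CPM (median 1.19), with a log2 fold change of -0.12 and an interval from -0.46 to 0.23. All 3 ranges overlapped those of vehicle lungs, and the adjusted p-values by edgeR were 0.453, 0.445 and 0.714.

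The third comparison, of nintedanib-treated bleomycin lungs with control lungs, uses the same control libraries as the first, and its values stand beside those and are not independent of them. Has1, Has2, Cemip, Cd44 and Vcan were called higher and Hyal1 and Hyal2 lower by edgeR, where 53.2% of all genes tested were called, 28.1% as higher and 25.1% as lower. The log2 fold changes were 1.35 ± 0.30 for Has1, 2.99 ± 0.70 for Has2 and 3.21 ± 0.67 for Cemip. For Cd44 and Vcan they were 1.15 ± 0.12 and 1.40 ± 0.22, and for Hyal1 and Hyal2 they were -0.53 ± 0.11 and -0.34 ± 0.09. The least certain of these 7 calls, that of Hyal2, had an adjusted p of 0.00108 by edgeR. All 17 nintedanib lungs lay above the highest control lung for Cemip, Cd44 and Vcan, as they did for 4.31% of all genes tested. For Has2 this held for 15 of 17 lungs and for Has1 for 13, and 14 of 17 lay below the lowest control lung for Hyal1 and likewise for Hyal2. Has3 (log2 fold change 0.16, adjusted p = 0.343 by edgeR) and Tnfaip6 (0.31, adjusted p = 0.19) were not called, with 95% intervals from -0.12 to 0.45 and from -0.09 to 0.71.

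Both comparisons with control lungs lost calls when every library in which Adipoq reached 1 CPM was left out, which leaves 2 control libraries. In vehicle lungs Has1 (log2 fold change 0.66, adjusted p = 0.421 by edgeR), Has2 (4.24, 0.065) and Cemip (3.71, 0.0658) were then no longer called. Under nintedanib Has1 (log2 fold change 1.14, adjusted p = 0.164 by edgeR), Has2 (2.99, 0.21) and Cemip (2.84, 0.161) were not called either. The standard errors with these 2 control libraries were 0.59, 1.69 and 1.45.

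The genes differed in how much they varied between lungs of a group. The biological coefficient of variation, the spread between libraries beyond counting noise, was 90.4% for Has2 and 88.1% for Cemip, ranks 111 and 117 from the highest of 14836 genes. It was 47.3% for Has1 and 34.9% for Vcan, and from 15.1% for Hyal2 to 26% for Tnfaip6 in the other 5 genes. The median gene had 13.6%.

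Within each bleomycin group, Has2, Cemip and Vcan followed the level of Col1a1, the gene of the main chain of type I collagen and a measure of scar matrix here. Cemip followed it most closely, with a Pearson r of 0.94 and a Spearman rho of 0.91 over 16 vehicle lungs and an r of 0.94 and a rho of 0.93 over 17 nintedanib lungs. Each of these 4 values had an adjusted permutation p of 9e-05, from 1e-05, the smallest that 100000 resamples can give. Without the 2 lungs farthest from the Col1a1 median, r was 0.89 and 0.88, and within series A alone it was 0.95 in both groups. Of the 14834 other genes tested, 0.108% in vehicle lungs and 0.0539% in nintedanib lungs had an r with Col1a1 at least as far from 0 as that of Cemip.

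For Has2 and Col1a1, r was 0.86 and rho 0.75 in vehicle lungs (adjusted permutation p = 0.00024 and 0.0041), and r was 0.77 and rho 0.70 under nintedanib (0.00072 and 0.0067). Without the 2 farthest lungs r was 0.72 and 0.74, and within series A 0.83 and 0.76. For Vcan and Col1a1, r was 0.83 and rho 0.76 in vehicle lungs (adjusted permutation p = 0.00047 and 0.0041), and r was 0.80 and rho 0.78 under nintedanib (0.00045 and 0.0022). Without the 2 farthest lungs these were 0.73 and 0.83, and within series A 0.83 and 0.79. As far from 0 as Has2, or farther, were 1.77% and 2.42% of other genes, and as Vcan 3.08% and 1.57%, in vehicle and nintedanib lungs. Lungs with more Col1a1 thus had more of all 3 transcripts in either group, and series B and C hold too few libraries of a group for a value.

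Hyal1 ran against Col1a1 in vehicle lungs, with r of -0.67 and rho of -0.66 (adjusted permutation p = 0.0085 and 0.015), and r was -0.58 without the 2 farthest lungs and -0.60 in series A. An r at least that far from 0 was held by 14% of other genes in vehicle lungs, so the relation of Hyal1 was a common one. Under nintedanib r was -0.40 and rho -0.27, and neither passed (adjusted permutation p = 0.23 and 0.44), and the difference between the groups was not tested. Cd44 did not pass in either group, with r of 0.53 and rho of 0.33 in vehicle lungs (adjusted permutation p = 0.087 and 0.42) and r of 0.00 and rho of 0.05 under nintedanib (0.99 and 0.85). Over the 9 genes and both groups, 18 relations with Col1a1 were computed. Has1, Has3, Hyal2 and Tnfaip6 passed in neither group.

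**Figure D4:**
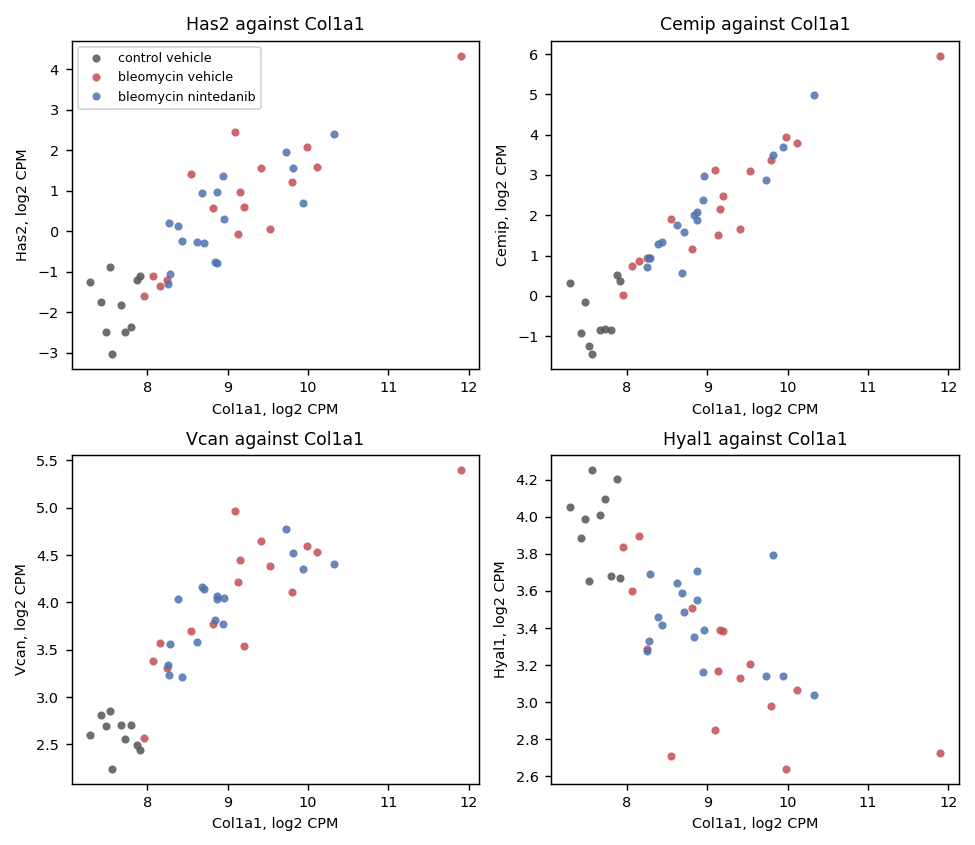
Levels of Has2, Cemip, Vcan and Hyal1 against Col1a1, both as log2 CPM with a prior count of 2, with 1 point per library and colours for the 3 groups. In each bleomycin group the first 3 genes rise along Col1a1, with r from 0.77 to 0.94. In vehicle lungs Hyal1 declines, with r of -0.67.

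Pairs of the 9 genes were compared in the same way, 36 pairs in each bleomycin group. The 2 farthest lungs of a pair were those farthest from the median of its second-named gene, not of Col1a1. In vehicle lungs 9 pairs passed by Pearson r, 6 of them also by Spearman rho, and in nintedanib lungs 3 and 1. The smallest of these r was 0.68 from 0 in vehicle lungs and 0.66 in nintedanib lungs. Among all pairs of the 14836 tested genes, 5.07% in vehicle lungs and 2.93% in nintedanib lungs reached that size, beside 25% and 8.33% of the member pairs. These shares are a description, since pairs share genes and libraries. In vehicle lungs Has2 went with Cemip (r = 0.88, rho = 0.86, adjusted permutation p = 0.00072 and 0.0014) and with Vcan (r = 0.87, rho = 0.86, adjusted permutation p = 0.00072 and 0.0018). It ran against Hyal1 (r = -0.82, rho = -0.84, adjusted permutation p = 0.0014 and 0.0018). Without the 2 farthest lungs these r were 0.75, 0.77 and -0.74, and within series A 0.90, 0.87 and -0.80. Under nintedanib Has2 and Hyal1 did not pass (r = -0.32, rho = -0.26, adjusted permutation p = 0.38 and 0.55). Has2 and Cemip passed there by r alone (r = 0.69, rho = 0.62, adjusted permutation p = 0.018 and 0.062). The differences between the groups were not tested.

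Has3 and Hyal2, neither of which passed with Col1a1, ran against each other in vehicle lungs (r = -0.81, rho = -0.85, adjusted permutation p = 0.0016 and 0.0014). Without the 2 farthest lungs r was -0.74, and within series A it was -0.87. Under nintedanib the same pair had an r of -0.07 and a rho of -0.10 (adjusted permutation p = 0.91 and 0.87), and the difference between the groups was not tested. The pair that passed by both measures under nintedanib was Has2 and Vcan (r = 0.68, rho = 0.68, adjusted permutation p = 0.02 and 0.035), with r of 0.77 without the 2 farthest lungs and 0.74 in series A.

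Vehicle replicate 4 lay at the end of these relations. Among 16 vehicle lungs it was the highest in Has2 (20.1 CPM), Cemip (62.2 CPM), Vcan (41.97 CPM) and Col1a1 (3823 CPM), and the second highest in Cd44 and Has3. It ranked 13 from the highest in Has1, 14 in Hyal1 and 15 in Hyal2. Nintedanib replicate 8 was likewise the highest of 17 in Has2 (5.14 CPM), Cemip (31.7 CPM) and Col1a1 (1285 CPM), and the lowest in Hyal1.

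The genes with the closest pattern to each called member were found over the 43 libraries after group means were removed, as a description. Cemip was closest to Serpine2, a serine protease inhibitor gene (r = 0.91), and to the collagen genes Col1a1 and Col1a2 (both r = 0.90). Vcan was closest to Tnc, which encodes tenascin-C, Anln and Fn1, the fibronectin gene (each r = 0.86). Has2 was closest to Ccdc80 (r = 0.82), Tmem173, the gene of the STING protein, and Ccl8, a chemokine gene (both r = 0.81). Cd44 was closest to Lcp1, the gene of the leukocyte actin-bundling protein L-plastin (r = 0.89), Rassf4 and Lrrfip1 (both r = 0.88). Hyal1 was closest to Tns1 (r = 0.83), Epas1, the gene of the hypoxia-inducible factor HIF-2 alpha, and Hmbox1 (both r = 0.82). Hyal2 was closest to Tmem184b (r = 0.88), Parvb and Sema3f (both r = 0.85), and Has1 to Rassf1, St3gal1 (both r = 0.73) and Epha2 (r = 0.72). The likeness of Has1 to its nearest genes was the weakest of the 7.

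Around these 9 genes, 36 other genes supply the precursor sugars, break hyaluronan down further, sense it or bind it in the matrix, and 27 of them were tested. In vehicle lungs against control 13 were called higher and 2 lower by edgeR, with a median log2 fold change of 0.36 beside -0.01 over all genes tested, where 57.9% were called. Of the precursor genes, Gfpt1, which encodes the first enzyme of the hexosamine pathway, and Pgm3, an enzyme gene further along it, rose by 0.36 and 0.37 on the log2 scale, and the other 4 of 6 were not called.

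Of the 4 tested genes of further breakdown, 2 were called higher, Gusb and Hexa, which encode lysosomal enzymes that remove single sugars from hyaluronan fragments, and 2 were not called. Gusb, the beta-glucuronidase gene, ran from 51.9 to 60.2 CPM in control lungs and from 71.1 to 167 CPM in vehicle lungs. Hexa, a hexosaminidase subunit gene, ran from 80.0 to 93.1 CPM in control lungs and from 126 to 208 CPM in vehicle lungs. In both genes every vehicle lung was above the highest control lung, as in 3.7% of all genes tested. The log2 fold changes were 1.28 ± 0.11 for Gusb and 0.96 ± 0.07 for Hexa (adjusted p = 1.42e-12 and 1.74e-14 by edgeR). Both enzymes are also abundant in macrophages, whose 6 markers were called higher as given with Cd44, and their part in this result was not tested.

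Of the 7 receptor genes, 4 were called higher and 1 lower. Hmmr, a hyaluronan receptor gene also active in dividing cells, rose by 2.68 ± 0.37 on the log2 scale. Tlr2, a receptor of innate immunity, rose by 1.61 ± 0.21, and Tlr4 by 0.41 ± 0.09. The scavenger receptor gene Stab2 rose by 1.70 ± 0.25, and Lyve1, the receptor of lymphatic endothelium and of some macrophages, changed by -1.01 ± 0.21. Beside them 4 of 5 tested lymphatic markers were called higher, with log2 fold changes of 1.43 for Prox1, 1.12 for Reln, 1.09 for Mmrn1 and 0.60 for Pdpn, and Flt4 (-0.10) was not called. The 6 endothelial markers were all called lower, with a median log2 fold change of -0.90. The part of either list in the Stab2 and Lyve1 results was not tested. Of the 10 tested matrix binding genes, 5 were called higher and 1 lower. Ptx3, which encodes the pentraxin that binds TSG-6, rose by 2.59 ± 0.37, and Hapln1, the gene of a link protein that ties versican to hyaluronan, by 1.66 ± 0.32. Itih3, a heavy chain gene of inter-alpha-inhibitor, rose by 1.03 ± 0.16 and Habp4 by 0.17 ± 0.05, and Itih5 changed by -0.85 ± 0.17. The largest adjusted p of the receptor and matrix genes named here was 0.00334 by edgeR, for Habp4.

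While none of the 9 members was called with nintedanib, 5 of these 27 other genes were, 2 higher and 3 lower. Of all genes tested, 3.21% were called higher and 4.1% lower. The lists were chosen with earlier results of these data known, so their counts are a description. Other markers moved in the same comparison. Of 6 large airway markers 5 were called higher, with a median log2 fold change of 4.28. Their sums were 9.89 to 97.8 CPM under vehicle (median 24.3) and 8.20 to 2774 CPM under nintedanib (median 18.9). The median sum was thus not higher under nintedanib. Of 6 fat markers 5 were called higher, with a median log2 fold change of 6.93. Their sums were 1.88 to 13.5 CPM under vehicle (median 5.18) and 2.42 to 1055 CPM under nintedanib (median 8.80). The 2 median sums lay far closer than that fold change. Of 6 neutrophil markers 4 were called higher, with a median log2 fold change of 0.97 and sums of 25.9 to 124 and 59.5 to 708 CPM. Among 6 smooth muscle and pericyte markers, Myh11 (log2 fold change 0.50) and Cnn1 (0.99) were called higher. Pdgfrb (-0.40) and Cspg4 (-0.50) were called lower. Pdgfra (0.43, higher) was the only 1 of 6 general fibroblast markers called, and 0 of 6 activated fibroblast markers were called. Without the libraries with Adipoq, the calls of Ptx3, Stab2, Hapln1 and Gfpt2 held, with adjusted p by edgeR from 8.91e-06 for Ptx3 to 0.0432 for Gfpt2, and that of Lyve1 did not (log2 fold change 0.53, adjusted p = 0.151). The part of the airway, neutrophil, smooth muscle, pericyte and fibroblast markers was not tested. Ptx3 differed most. It ran from 2.75 to 13.6 CPM under vehicle (median 8.45), from 0.257 to 5.62 CPM under nintedanib (median 1.07), and from 0.534 to 2.40 CPM in control lungs (median 1.34). All 17 nintedanib lungs lay below the vehicle median, and 4 were above the highest control lung. Its log2 fold change against vehicle was -2.43 ± 0.30 (adjusted p = 1.08e-06 by edgeR). Against control it was 0.16 with a 95% interval from -0.56 to 0.87 and was not called.

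Stab2 ran from 3.08 to 14.6 CPM under vehicle (median 6.97) and from 1.93 to 6.71 CPM under nintedanib (median 3.65), and all 17 nintedanib lungs were below the vehicle median. For Stab2 the log2 fold change was -0.85 ± 0.20 (adjusted p = 0.00718 by edgeR). Hapln1 ran from 0.548 to 2.04 CPM under vehicle (median 1.13) and from 0.129 to 1.67 CPM under nintedanib (median 0.597), with 14 of 17 below the vehicle median. For Hapln1 the log2 fold change was -0.88 ± 0.25 (adjusted p = 0.0275 by edgeR), and it was not called within series A alone (-0.69, adjusted p = 0.16). Hapln1 is the nearest protein-coding neighbour of Vcan on one side on chromosome 13, 43659 bases away on the opposite strand, and Vcan itself was not called with nintedanib.

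Lyve1 ran from 59.8 to 309 CPM under vehicle (median 116) and from 120 to 324 CPM under nintedanib (median 209), and all 17 nintedanib lungs were above the vehicle median. For Lyve1 the log2 fold change was 0.57 ± 0.18 (adjusted p = 0.047 by edgeR), and 32 of 43 leave-outs of a single library ended the call, with adjusted p up to 0.0841. Over the 8 other settings tried, its adjusted p ran from 0.0306 to 0.151 by edgeR or DESeq2, and 4 of them ended the call. Gfpt2, a second gene of the first hexosamine enzyme, ran from 6.85 to 23.8 CPM under vehicle (median 14.6) and from 10.4 to 34.3 CPM under nintedanib (median 22.1). Of 17 nintedanib lungs 15 were above the vehicle median, with a log2 fold change of 0.60 ± 0.13 (adjusted p = 0.00498 by edgeR). In number series A, B and C the differences of Gfpt2 in mean log2 CPM were 0.71, 1.05 and -0.19. The lymphatic markers moved beside these receptors: of 5 tested, Prox1, Flt4, Mmrn1 and Reln were called lower with nintedanib and Pdpn was not called. The sum of the 6 listed lymphatic markers was 330 to 535 CPM in vehicle lungs, 277 to 491 CPM in nintedanib lungs and 286 to 308 CPM in control lungs, none was at 0, and their part in the Stab2 and Lyve1 results was not tested.

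**Figure D5:**
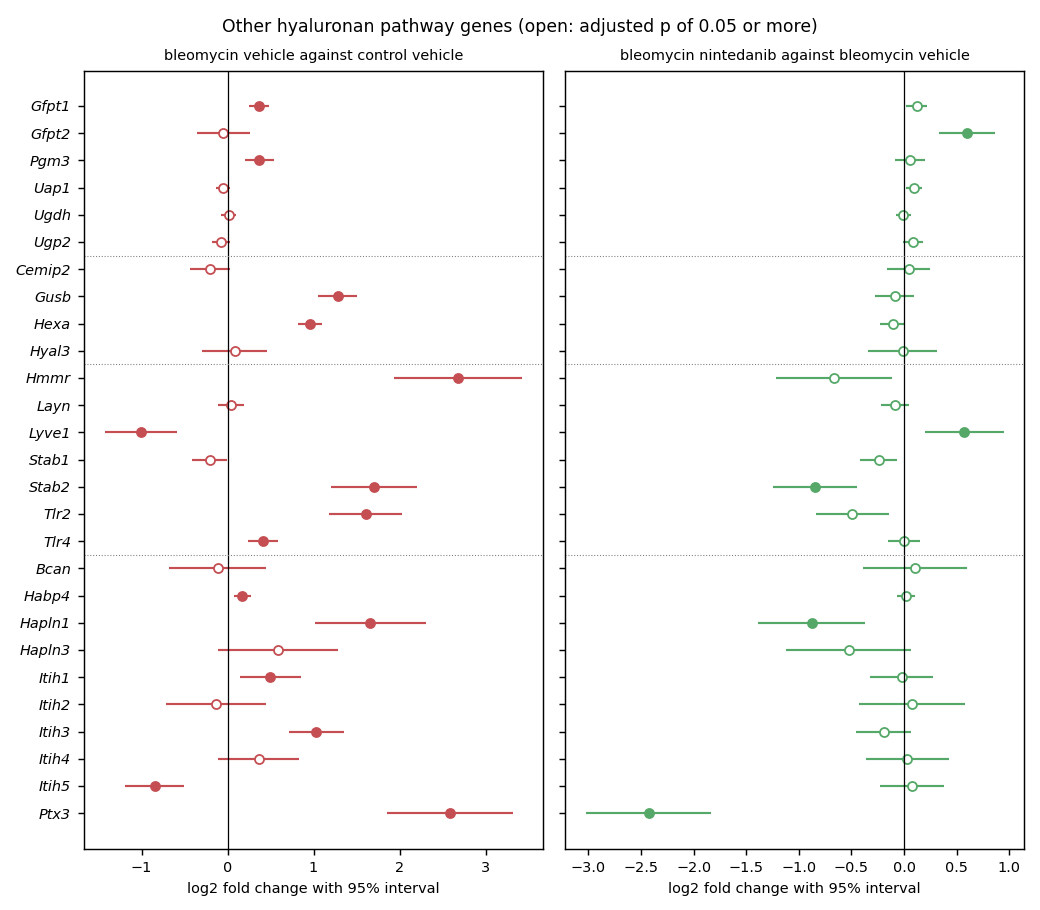
Log2 fold changes (horizontal axes, with different scales) of the 27 tested other genes of the pathway, for bleomycin vehicle against control vehicle on the left and bleomycin nintedanib against bleomycin vehicle on the right. Lines are 95% intervals, filled points had an adjusted p under 0.05, and dotted lines divide precursor, breakdown, receptor and matrix genes from top to bottom. On the right Ptx3, Stab2, Hapln1, Lyve1 and Gfpt2 are filled, with Ptx3 at -2.43.

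Against control lungs, the nintedanib group had 13 of the 27 genes called higher and 2 lower by edgeR, where 53.2% of all genes tested were called. Gusb and Hexa had log2 fold changes of 1.19 ± 0.11 and 0.85 ± 0.07 there. Every nintedanib lung was above the highest control lung in both, as in 4.31% of all genes tested. Stab2 had 0.85 ± 0.24 (adjusted p = 0.00294 by edgeR) and Hapln1 0.78 ± 0.32 (adjusted p = 0.0386), and Lyve1 was not called (-0.43 ± 0.21, adjusted p = 0.0732). Gfpt2 was called higher there, with 0.55 ± 0.15 (adjusted p = 0.0027 by edgeR). In vehicle lungs against control Gfpt2 was not called (-0.05 ± 0.15, adjusted p = 0.801 by edgeR).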

How the data were processed

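The authors deposited whole-number counts per gene, 1 column per library, for 43 libraries. Per the labels' protocols, directional libraries of polyA RNA were read single-end at 75 bases. GRCm38, STAR 2.7.0f and R 3.6.0 are named, per the submitters' processing notes, without their roles. Not given in the sources used here were the counting tool, strand setting, annotation release and filters, so genes that overlap on opposite strands (Has2 with Has2os, Has3 with Chtf8) may share reads.

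Genes were kept with filterByExpr (minimum count 10, minimum total 15), leaving 14836 genes and 99.96% of counts. One fit over all 43 libraries used edgeR's quasi-likelihood test (two-sided, TMM factors, 1 coefficient per group, Benjamini-Hochberg adjustment over all tested genes, threshold 0.05). A call is an adjusted p under that threshold. CPM used TMM factors, and log2 CPM a prior count of 2. Relations were tested by permutation with 100000 resamples, two-sided, adjusted over 18 relations with Col1a1 and over all pairs. Alternatives were DESeq2, other scalings, no filter, 2 groups only, number series as a covariate, number series A alone, libraries without fat markers, and single leave-outs. The share of other genes, or of all gene pairs, with an absolute r at least as large was counted as a description. Levels per kilobase used exon lengths of the GRCm38 annotation.

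Named genes were all members, other pathway genes that were called (up to 5 per list in the first comparison, and every one between the bleomycin groups), and the 3 genes most like each called member among tested genes whose average log2 CPM was 2 or more. The members and gene lists were chosen with earlier results of these data known, and a few pathway genes are not reported here and are in no count of the lists. Software was DESeq2 1.42.0, edgeR 4.0.16 and limma 3.58.1 in R 4.3.3, and SciPy 1.17.1 in Python 3.11.15.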

Additional observations from a re-analysis of the deposited data

Results flagged for a closer look

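In the 10 control libraries, the gap of the highest or lowest library to its nearest neighbour was set against the group's whole range for 26 genes, and 4 passed Dixon's 95% critical value. Chance alone passes about 1 in 20 such groups. For Tnfaip6 the lowest library, control replicate 9, stood apart with a ratio of 0.47. The same library was the highest in Hapln1, with a ratio of 0.5. Control replicate 2 was the highest in Lyve1 (0.64) and in Stab1 (0.47).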

How the results depend on the processing

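No paired analysis was possible because the labels give no replicate numbers. Counts of called members stayed at 7 in both comparisons with control and at 0 between the bleomycin groups, apart from series A alone, which gave 6 members in vehicle against control (Has1 was lost), and the alternative without libraries holding Adipoq. The latter leaves 2 control libraries and gave 4 members in each comparison with control, 6 other pathway genes for nintedanib against control, and 3654, 525 and 3297 genes over the whole table for vehicle against control, nintedanib against vehicle and nintedanib against control. With only the 2 bleomycin groups fitted, 640 genes were called between them instead of 1084, and leaving out 1 library gave 696 to 1559. Leaving out 1 library gave 7 to 8 members called in vehicle against control, 0 to 0 between the bleomycin groups and 7 to 7 in nintedanib against control.

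Values near zero turned sign between the bleomycin groups. The log2 fold change of Has3 was -0.0062 with library totals as the only scaling, -0.012 in number series A alone, -0.0484 without the libraries holding Adipoq, and -0.0192 to 0.0744 with 1 library left out. That of Tnfaip6 was 0.0222 in series A alone, and that of Cemip ran from -0.9997 to 0.1425 with 1 library left out. The cause was not tested.

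Without the 2 lungs farthest from the Col1a1 median, r with Col1a1 moved in vehicle lungs to 0.72 for Has2, -0.36 for Has3, 0.12 for Hyal2, 0.89 for Cemip, 0.26 for Cd44 and 0.73 for Vcan. Under nintedanib it moved to 0.0135 for Hyal1, 0.88 for Cemip and 0.25 for Tnfaip6. Depth limits Has2 in control lungs, where the 10 libraries held 31 counts.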
